A study of Homo sapiens with 12 samples.

Results

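The cells described here were 720 Nalm-6 cells of the library labelled RUNX1 whose transcripts placed them among the proliferating cells but outside late G2 and mitosis. They were chosen by 2 measured scores. The proliferation score P was the sum of MKI67, TOP2A, RRM2, TYMS, CENPF and CCNB1 UMIs per 10000 UMIs of the cell, and the mitosis score M was the sum of CCNB1, CCNB2, CDC20, PLK1, AURKA, CENPF, HMMR and UBE2C UMIs on the same scale. A UMI is a molecule counted once. Of 5491 barcodes in this library, 4800 had more than 2000 and fewer than 6000 genes and under 20% mitochondrial UMIs. The top 30% by P were 1440 cells, and the 720 of them with M at or under the median of those cells are called S-phase-like cells below. The other 720 are called mitotic cells, and the 3360 cells with lower P are called cells under the P cut. Over both libraries of the series, 10398 of 11564 barcodes passed.

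Nalm-6 is an established human cell line grown from precursor B-cell acute lymphoblastic leukemia (B-ALL). RUNX1 is a transcription factor on which blood stem cells and B-cell precursors depend. The single-cell RNA-seq (a 3' end assay of 10x Genomics) covered 1 library labelled with induced RUNX1 expression and 1 control library. The library labelled RUNX1 came from cells transduced with a Tet-On regulatory vector and then with a pLVX-Tight-Puro response vector that held RUNX1 cDNA, kept in 500 ng/ml doxycycline for 72 h. The genotype label of the control is empty vector, which would be the same vectors with no insert, its title names DMSO, its labels give 72 h, and they give no doxycycline. The paper describes DMSO-treated Nalm-6 cells as the control of its WEE1 inhibitor experiment and names no vector for them. Whether this control library came from those cells could not be settled. Vector, inducer and culture therefore cannot be told apart from the RUNX1 label. The paper describes bead depletion of dead cells and lanes of pooled human and mouse cells for its single-cell drug experiment. It does not say whether the library labelled RUNX1 was prepared this way. With 1 library per group no test between groups was possible, and every interval below is a 95% interval for counting error only. The comparison group was the 2494 of 5598 passing control cells inside the same P and M limits, called control S-phase-like cells.

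In S phase a cell copies its DNA from origins that were loaded with the MCM helicase during G1. The E2F transcription factors switch on the genes for this, among them RRM2, the small subunit of the enzyme that makes deoxynucleotides, and TYMS, the enzyme that makes thymidylate. Histone transcripts of the replication-dependent kind accumulate while DNA is copied, and cyclin B, PLK1 and the Aurora kinases follow in G2 and mitosis. In normal B-cell development, large cycling precursors carry the pre-B receptor, and rearrangement of antibody genes by the RAG proteins takes place mainly when the cells have stopped dividing.

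The E2F motif TTTCCCGC (both strands read) was searched in the 250 bases before the start of TYMS, RRM2 and PCNA, the sliding clamp of the replication fork, because these genes carry the cell cycle part of the results. The sequences are from RefSeq on GRCh38.p14, 5′ to 3′ on the strand of the gene, and capitals mark the motif, here read on the opposite strand as GCGGGAAA. TYMS lies on the plus strand (chr18:657403-657652) and its match begins 39 bases before the start. PCNA lies on the minus strand (chr20:5126623-5126872, the second of its 2 windows), with the match 59 bases before the start.
TYMS: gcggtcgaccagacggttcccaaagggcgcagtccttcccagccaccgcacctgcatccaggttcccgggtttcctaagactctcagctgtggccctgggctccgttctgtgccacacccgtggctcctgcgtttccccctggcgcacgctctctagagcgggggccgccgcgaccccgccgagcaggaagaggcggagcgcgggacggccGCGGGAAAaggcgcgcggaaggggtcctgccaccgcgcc
PCNA: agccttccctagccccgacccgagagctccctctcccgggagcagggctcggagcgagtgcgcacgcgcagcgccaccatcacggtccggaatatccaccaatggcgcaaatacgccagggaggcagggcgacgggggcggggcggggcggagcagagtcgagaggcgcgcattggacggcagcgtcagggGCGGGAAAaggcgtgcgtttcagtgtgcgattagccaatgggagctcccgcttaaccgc
The motif was found in 488 of 35116 such windows, or 1.39%. Neither window of RRM2 nor the other window of PCNA held it, and the form TTTGGCGC, present in 0.55% of windows, was found in none of the 8 genes searched. A match is a string of letters in a window and was not read as a binding site.

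The S-phase-like cells held 14701465 UMIs in all, and the control S-phase-like cells held 31960276. The median S-phase-like cell had 19983 UMIs, 4128 genes and 12.6% mitochondrial UMIs, against 12072.5 UMIs, 3216.5 genes and 9.49% in the control. Mouse UMIs were 0.880% of human UMIs in the median S-phase-like cell and 1.98% in the control. No doublet caller was run, and values without the 5% of cells with most UMIs are given where they bear on a result. The 2 libraries shared 12 cell barcodes, 1 of them among the S-phase-like cells. Leaving them out gave the same counts of 2-fold genes as printed below.

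The library labelled RUNX1 held cells of more than one kind. After each cell was thinned to 8000 UMIs, which 713 S-phase-like cells and 2324 control S-phase-like cells could be, 463 S-phase-like cells (64.9%, 61.3 to 68.4) had no UMI of 8 Y-linked genes. Another 234 (32.8%) had 3 or more, and 16 lay between. In the control, 18 of 2324 cells (0.775%) had none and 96.7% had 3 or more. The same split ran through the mitotic cells, with 71.0% at 0, and the cells under the P cut, with 65.1% at 0. The S-phase-like cells with no Y-linked UMI had median P and M scores of 9.43 and 3.91, and those with 3 or more had 9.57 and 3.78. Values by this split are given beside the results below, and what the split comes from was not tested.

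**Figure D1:**
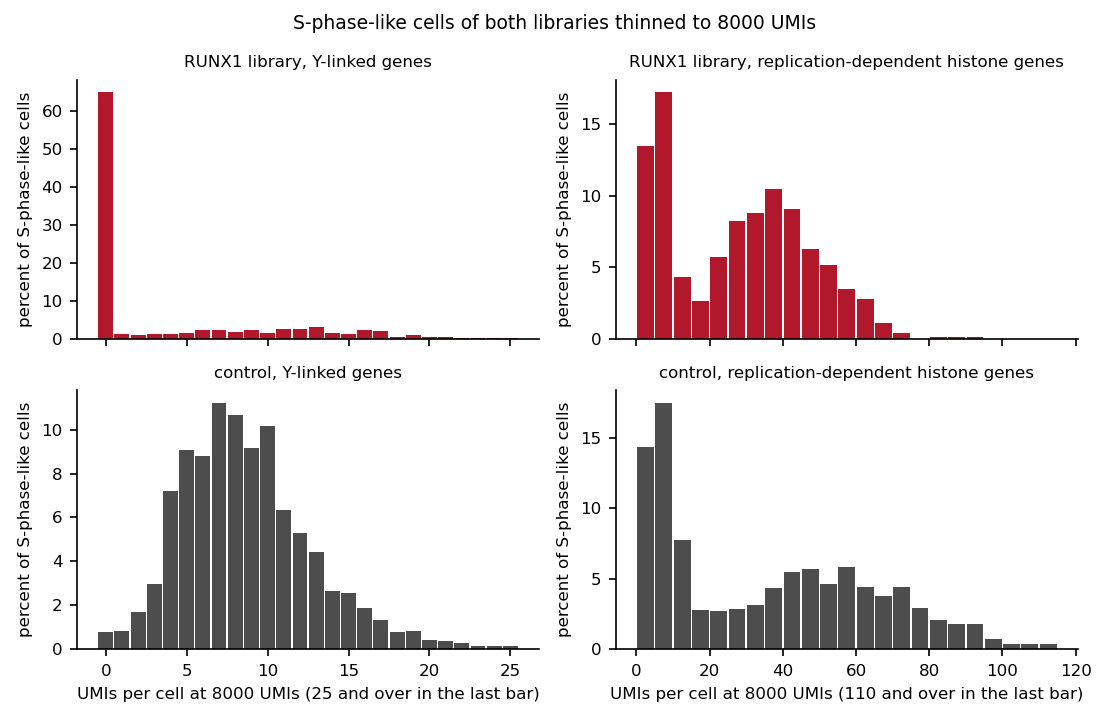
UMIs of the 8 Y-linked genes (left) and of the replication-dependent histone genes (right) per S-phase-like cell thinned to 8000 UMIs, as the percent of cells, for 713 cells of the library labelled RUNX1 and 2324 of the control; the vertical scale differs between panels. At 0 Y-linked UMIs stand 64.9% of the 713 cells and 0.775% of the control cells, and the histone UMIs form 2 humps in both libraries.

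RUNX1 itself was lower, not higher, in these S-phase-like cells. The gene (ENSG00000159216) spans 36160098 to 37376965 on chromosome 21 of GRCh37. It had 494 UMIs, a level of 33.6 CPM (UMIs of the gene per 1000000 UMIs of the set), and 2302 UMIs, a level of 72.0 CPM, in control S-phase-like cells. The log2 ratio was −1.10 (−1.24 to −0.96), and it was −1.25 in mitotic cells and −1.32 in cells under the P cut. At 8000 UMIs per cell, 20.1% of S-phase-like cells had a RUNX1 UMI against 39.5% in the control (38.8% and 52.2% before thinning). The level was 27.3 CPM in S-phase-like cells with no Y-linked UMI and 44.5 CPM in those with 3 or more. Against control cells with 3 or more, the latter stood at a log2 ratio of −0.71, past 0 but within 2-fold. The direction goes against the label, so the library is named by its label throughout. The induced cDNA and the endogenous gene share one row of the table, and the 3' assay reads only transcript ends that the annotation covers.

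The share of passing cells inside the P and M limits was 15.0% (14.0 to 16.0) in the library labelled RUNX1, a share that the rule fixes, and 44.6% (43.2 to 45.9) in the control, where only the limits were carried over. With each cell thinned to 8000 UMIs, which left out 612 and 413 shallower cells, the shares were 16.4% (686 of 4188) and 43.2% (2239 of 5185). Control cells were thus found in the range more often than the intervals for counting error cover, and the difference has no replicate check. Under the P cut lay 70.0% of passing cells of the library labelled RUNX1 and 17.0% of those of the control.

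**Figure D2:**
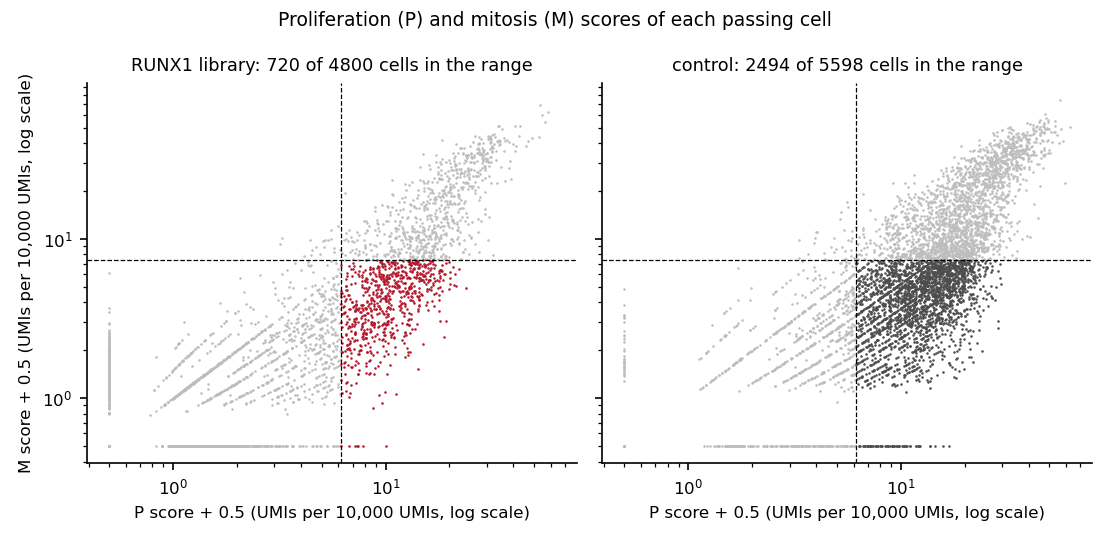
Proliferation score P (horizontal) against mitosis score M (vertical), each in UMIs per 10000 UMIs of the cell, for every passing cell of the library labelled RUNX1 and of the control; lines mark the P limit of 5.64 and the M limit of 6.85, and the S-phase-like range is coloured. It holds 720 of 4800 cells in the first library and 2494 of 5598 in the second.

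The limits cut through a continuous cloud of cells. The lowest P of an S-phase-like cell was 5.64 and the highest below the limit was 5.63, and the highest M was 6.85 against 6.86 in the lowest mitotic cell. Within 10% of the limits lay 57 cells by P and 78 by M. The median S-phase-like cell had P 9.51 (quartiles 7.55 and 12.4) and M 3.85, and the control had P 11.4 and M 3.82. TYMS alone gave 47.6% of the P UMIs in S-phase-like cells and 48.9% in the control, so the score was led by one gene in both.

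The 12 score genes chose the cells, and their values are a description. RRM2 stood at 108 CPM in S-phase-like cells and 191 CPM in control S-phase-like cells, a log2 ratio of −0.82. TYMS stood at 487 and 597 CPM, or −0.29. MKI67 and TOP2A, a nuclear proliferation antigen and the topoisomerase that untangles replicated DNA, stood at 0.06 and 0.10 on the log2 scale. The mitotic score genes ranged from −0.36 for HMMR to 0.58 for PLK1. RRM2 thus made up 10.5% of the P UMIs here and 15.6% in the control.

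Genes outside the scores placed these cells mainly in S phase. With the score genes removed, 40 S-phase and 46 G2/M genes called 475 of 713 S-phase-like cells (66.6%, 63.0 to 70.1) as S, 31.4% as G2/M and 1.96% as G1. Of mitotic cells 9.99% were called S and 89.5% G2/M, and of cells under the P cut 80.2% were called G1. The label was thus not met by the phase call in about 1 in 3 of the cells. Control S-phase-like cells were called S in 82.6% and G2/M in 16.4%. Phase calls can read free RNA in the droplets, which was not measured here.

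Within the library, origin licensing genes were higher in S-phase-like cells than in either other set. All 19 measured members of the licensing and MCM helicase list were higher by a log2 ratio of at least 0.5 than in cells under the P cut, with a median of 1.89, where 12.4% of all genes were. Over mitotic cells 10 of 19 were higher and 1 lower, with a median of 0.60, where 1.22% of all genes were higher and 2.96% lower. MCM3, a subunit of the helicase, stood at 302 CPM in S-phase-like cells, 165 CPM in mitotic cells and 86.1 CPM under the P cut. PCNA followed the same order at 350, 212 and 86.0 CPM. The fork genes had medians of 1.60 over cells under the P cut and 0.26 over mitotic cells. G2/M genes outside the scores stood between the 2 other sets, with 40 of 42 lower than in mitotic cells (median −1.18) and 34 of 36 higher than under the P cut (median 2.62). These contrasts follow in part from the choice of cells by correlated genes and were not tested.

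Between libraries, the replication genes of S-phase-like cells were close to those of the control. Control cells were held to the same P and M limits, so like levels of genes that move with these scores follow in part from that. The phase call was S in 66.6% of S-phase-like cells and 82.6% of control S-phase-like cells. The share of all genes at or past a log2 ratio of 0.5 was 6.67% in the higher and 13.1% in the lower direction, over 7620 genes at 10 CPM or more in either group, with a median ratio of −0.13. Of 19 licensing genes 0 were higher and 1 was lower, DBF4, the activator of the CDC7 kinase, at 57.5 against 95.9 CPM (−0.74). The list median was −0.28. MCM3 stood at 302 against 372 CPM (−0.30), MCM5 at 166 against 194 CPM (−0.22) and CDC6, which loads the helicase, at 66.3 against 91.7 CPM (−0.47). The median cell held 16 UMIs of the licensing list per 8000 UMIs, against 19 in the control.

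Of 28 fork genes 0 were higher and 5 lower, with a median of −0.17, where 6.67% of all genes were higher and 13.1% lower. POLA1, the polymerase that starts each DNA strand, had 13.9 against 23.2 CPM (−0.74), and RFC3, part of the loader of the PCNA clamp, had 53.1 against 83.6 CPM (−0.65). PCNA stood at 350 against 410 CPM (−0.23) and FEN1, a flap nuclease of the lagging strand, at 156 against 170 CPM (−0.13). Of 22 nucleotide synthesis genes 0 were higher and 4 lower (median −0.25), led by UMPS of the pyrimidine pathway at 34.8 against 63.9 CPM. In 23 repair genes 0 were higher and 2 lower (median −0.13), among them the uracil glycosylase UNG at 61.4 against 96.2 CPM. With totals that leave out mitochondrial and ribosomal protein genes, the fork and repair medians were 0.00 and 0.05.

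Genes that handle chromatin behind the fork held the largest differences of the replication group. Of 16 members 0 were higher and 4 lower, with a median of −0.29, where 6.67% of all genes were higher and 13.1% lower. HMGN2, a nucleosome-binding protein, stood at 520.5 CPM against 1099 CPM, a log2 ratio of −1.08 (−1.11 to −1.04). UHRF1, which keeps DNA methylation through replication, stood at 136 against 285 CPM, or −1.06 (−1.13 to −0.99). SLBP, which binds the stem-loop of histone transcripts, and SUPT16H, a histone chaperone, had ratios of −0.78 and −0.57. UHRF1 moved with the Y-linked split, at 100 CPM in S-phase-like cells with no Y-linked UMI and 198 CPM in those with 3 or more. Against control cells with 3 or more, the latter had a ratio of −0.53.

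In cells under the P cut the same lists differed far more between the libraries. Medians were −1.30 for licensing, −0.997 for fork, −0.89 for nucleotide synthesis and −1.07 for chromatin genes. All 19 licensing genes were lower there by 0.5 or more, as were 22.5% of all genes. The G1 call covered 80.2% of those cells under the RUNX1 label and 36.3% in the control, so these medians compare sets with different phases. The ratios of the mitotic cells, −0.38, −0.25, −0.38 and −0.33, lay near those of the S-phase-like cells.

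Of 22 G1/S regulators 2 were higher and 3 lower, with a median of −0.15. Over all genes 6.67% were higher and 13.1% lower. CDKN2D, an inhibitor of CDK4 and CDK6, stood at 34.3 against 17.4 CPM (0.98), and CDKN1A, the p21 inhibitor, at 88.0 against 52.4 CPM (0.75). CCNE2, the cyclin that drives entry into S phase, stood at 23.8 against 42.7 CPM (−0.84), and RB1, which holds E2F in check, at 48.2 against 71.8 CPM (−0.58). Both named inhibitors were higher and both of the last genes lower than in control cells of the same range. The 4 were named for having the largest ratios, and CDKN1B and CDKN2C of the same list were not among the higher genes. None of these 4 reached 2-fold.

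**Figure D3:**
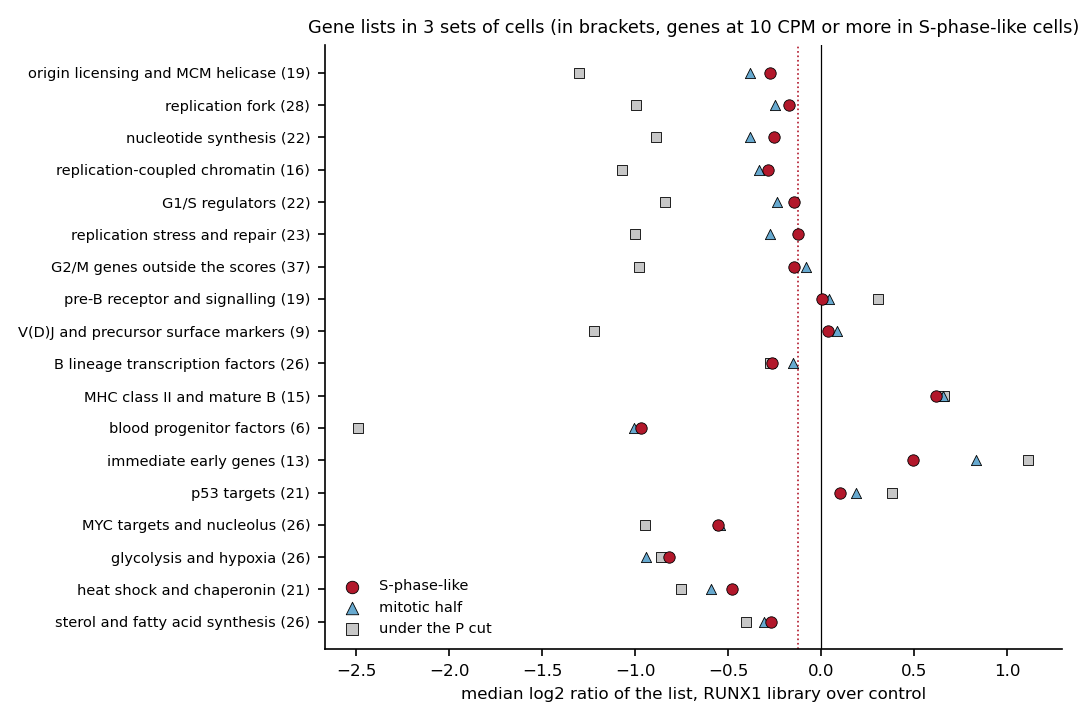
Median log2 ratio of each gene list, library labelled RUNX1 over control, in S-phase-like cells (circles), mitotic cells (triangles) and cells under the P cut (squares); each set measured its own genes at 10 CPM or more, and the dotted line marks the median of all genes in S-phase-like cells, −0.13. The replication lists of the S-phase-like cells lie between −0.29 and −0.13, while those of cells under the P cut reach −1.30.

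Histone transcripts divided the S-phase-like cells into cells with few and cells with many. These transcripts mostly lack the poly(A) tail that the assay captures, so the counts are a part of what the cells held. Per 8000 UMIs, 461 of 713 S-phase-like cells (64.7%, 61.0 to 68.2) had 16 or more replication-dependent histone UMIs, with a median of 38, and the remaining 252 had a median of 5. In the control 59.7% (57.7 to 61.7) had 16 or more, with a median of 53, and of cells under the P cut in the library labelled RUNX1 1.01% did. The intervals of the shares with many overlapped between the libraries, and the median amount in those cells was lower than in the control.

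Cells with many histone UMIs stood apart in other genes too. MKI67 was at 144 CPM in them and 63.8 CPM in the others, a log2 ratio of 1.18 (1.00 to 1.36), and TOP2A at 197 and 79.8 CPM. In control S-phase-like cells the same ratios were 0.99 and 1.16. The licensing UMIs were nearly equal, with medians of 16 and 15 per cell, while CCNE2 was lower in cells with many, at 20.8 against 30.4 CPM. NCL, the nucleolar protein nucleolin, was also lower, at 508 against 727 CPM. Median P was 11.0 against 7.36 and median M 4.62 against 2.44, so the scores that chose the cells moved with the histone split.

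By gene, 18 histone genes reached 10 CPM, 5 of them higher and 4 lower than in the control, with a median of −0.00. Among all genes 6.67% were higher and 13.1% lower. The median ran from −0.45 at a gene floor of 50 CPM to 0.23 at a floor of 1 CPM. The listed histone genes summed to 3509 against 4612 CPM. HIST1H2AM stood at 13.5 against 49.8 CPM (−1.88) and HIST1H2AJ at 6.12 against 20.2 CPM (−1.72). HIST1H3D stood at 25.5 against 12.9 CPM (0.99) and HIST1H2AG at 22.9 against 13.0 CPM (0.82). The ratio of HIST1H2AG was −0.28 where mitochondrial UMIs were limited to 10%. The copies are near identical, and reads could be split between them.

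At 10 CPM or more in either group, 117 of 7620 genes (1.54%) were at least 2-fold higher in the S-phase-like cells and 115 (1.51%) at least 2-fold lower, and the higher genes made up 50.4% of these. The split depended on the scaling. With totals that leave out mitochondrial and ribosomal protein genes it was 78.4%, from 305 higher and 84 lower genes, and with the median of ratios it was 68.6%, from 166 and 76. These scalings moved the median of all genes from −0.13 to 0.07 and 0.00. Ribosomal protein UMIs were 31.6% of all in S-phase-like cells and 27.9% in the control. In mitotic cells 1.88% of 7785 genes were higher and 1.73% lower, and in cells under the P cut 8.42% of 8015 were higher and 6.29% lower. A gene that reached 10 CPM in a single group was measured through the group where it was high.

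**Figure D4:**
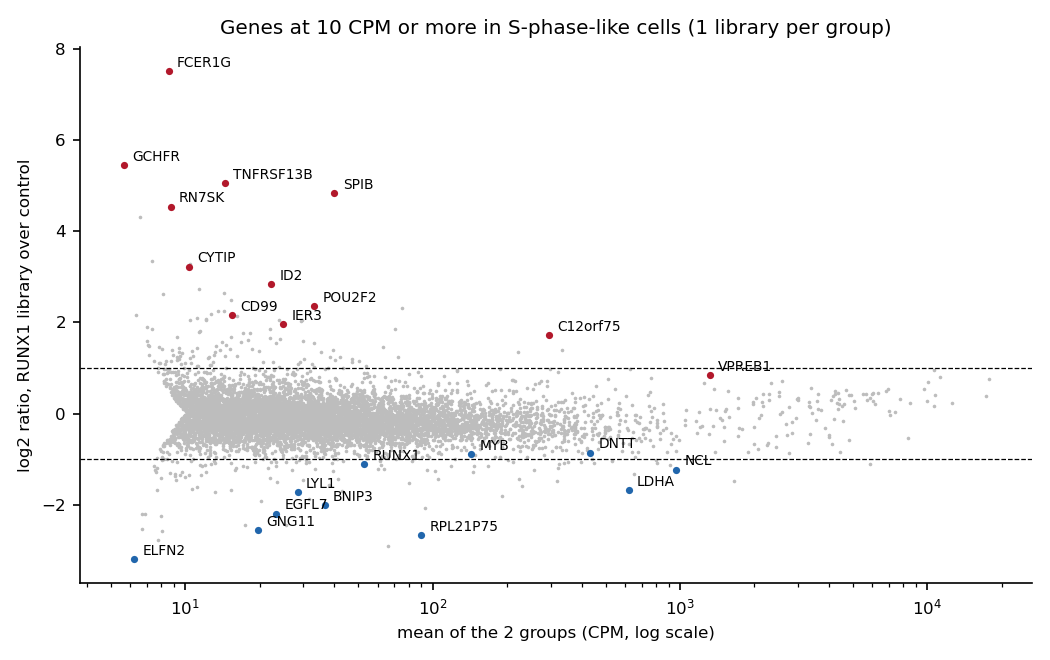
Log2 ratio of each gene, S-phase-like cells of the library labelled RUNX1 over control S-phase-like cells, against the mean level of the groups in CPM on a log scale, for the 7620 genes at 10 CPM or more; dashed lines mark 2-fold. SPIB, at a ratio of 4.85, stands alone above 4 among genes with a mean above 20 CPM, and LDHA and NCL are the labelled genes below −1 at the highest levels.

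Most of these genes were called in the other cells as well. Of the 117 higher genes 100 were also 2-fold higher in mitotic cells (85.5%, and 68.5% of the 146 of mitotic cells), and 102 in cells under the P cut (87.2%, and 15.1% of the 675 there). Of the 115 lower genes 87 were shared with mitotic cells (75.7%, and 64.4% of theirs) and 94 with cells under the P cut (81.7%, and 18.7% of theirs). The 3 comparisons used different cells of the same pair of libraries. S-phase-like and mitotic cells thus had counts of like size, and cells under the P cut had several times more.

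SPIB, an ETS-family transcription factor of B cells and plasmacytoid dendritic cells, was the most abundant of the 10 genes with the highest ratios. All 10 stood under 10 CPM in the control, so they were measured only through the group where they were high. SPIB had 1138 UMIs in the S-phase-like cells, or 77.4 CPM, and 86 in the control, or 2.69 CPM, a log2 ratio of 4.85 (4.53 to 5.18). Thinned to 8000 UMIs, 33.5% (30.1 to 37.1) of S-phase-like cells had a SPIB UMI, against 1.85% (1.34 to 2.48) in the control and 63.3% in cells under the P cut. Without thinning the S-phase-like share was 45.4%. SPIB was thus present in a part of these cells and in a larger part of those under the P cut, where it stood at 186 CPM. No cell type that should lack these genes was in the matrices, so the share that free RNA alone gives was not measured.

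TNFRSF13B, the TACI receptor of mature B cells, stood at 28.0 CPM against 0.845 CPM, a log2 ratio of 5.05 (4.49 to 5.67). The long non-coding AC104024.1 lies beside it on GRCh37 chromosome 17, at 16879313 to 16884667. TNFRSF13B lies on the minus strand, so its upper coordinate of 16875432 is its start side and AC104024.1 lies upstream of it. AC104024.1 stood at 12.4 against 0.626 CPM (4.31). ID2, an inhibitor of E proteins, had 38.9 against 5.41 CPM (2.85), with a UMI in 19.5% of S-phase-like cells against 4.00% in the control at 8000 UMIs. RHOB, a small GTPase, had 19.0 against 1.94 CPM (3.29). All 4 were higher in the mitotic cells and in those under the P cut as well.

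2 of the 10 highest genes had like ratios in all 3 sets of cells. RN7SK, a small nuclear RNA with no poly(A) tail that holds back transcription elongation, stood at 16.7 against 0.720 CPM (4.54), with ratios of 4.56 in mitotic cells and 4.59 under the P cut. PCBD1, a dimerisation cofactor of HNF1 and a pterin dehydratase, stood at 13.3 against 1.31 CPM (3.34), with 3.08 and 2.61 there. Their levels in S-phase-like cells were 102% and 108% of those under the P cut. They moved with the Y-linked split in opposite ways, RN7SK at 11.0 CPM in cells with no Y-linked UMI and 25.2 CPM in cells with 3 or more, PCBD1 at 17.7 and 6.43 CPM.

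FCER1G, GCHFR and CYTIP were the genes of the highest 10 whose level most set S-phase-like cells apart from cells under the P cut, together with RHOB. The RUNX motif TGTGGT (both strands read) was searched in the same 250-base windows of these genes, SPIB and TNFRSF13B, and the windows that held it are shown because they belong to 2 of the genes with the largest ratios. Capitals mark the motif, read on the opposite strand as ACCACA in CYTIP. FCER1G lies on the plus strand (chr1:161215045-161215294, GRCh38.p14) with the match 42 bases before the start, and CYTIP on the minus strand (chr2:157444090-157444339) with the match 58 bases before it.
FCER1G: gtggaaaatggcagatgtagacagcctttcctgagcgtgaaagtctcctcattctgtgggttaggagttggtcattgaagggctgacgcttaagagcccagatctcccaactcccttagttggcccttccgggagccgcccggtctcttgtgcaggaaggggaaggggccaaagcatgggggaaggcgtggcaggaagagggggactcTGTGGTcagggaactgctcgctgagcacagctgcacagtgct
CYTIP: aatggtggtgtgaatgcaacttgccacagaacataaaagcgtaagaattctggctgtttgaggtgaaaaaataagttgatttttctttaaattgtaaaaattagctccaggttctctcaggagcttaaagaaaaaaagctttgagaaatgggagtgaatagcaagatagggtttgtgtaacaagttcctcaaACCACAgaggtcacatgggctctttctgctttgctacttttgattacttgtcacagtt
The motif was found in 3855 of 35116 windows (11%), so a match is common. SPIB, GCHFR and TNFRSF13B did not hold it in this window, which says nothing of other positions.

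FCER1G, the signalling chain shared by IgE and IgG receptors, had 251 UMIs in S-phase-like cells (17.1 CPM) and 2 in the control (0.0626 CPM), with a log2 interval of 6.22 to 11.15. It stood at 222 CPM under the P cut, and the S-phase-like level was 7.69% of that. GCHFR, a regulator of the first enzyme of tetrahydrobiopterin synthesis, had 162 against 8 UMIs, 11.0 against 0.250 CPM (5.46, 4.45 to 6.70), and its S-phase-like level was 5.04% of the level under the P cut. CYTIP, which binds the cytohesin regulators of integrins, had 18.7 against 2.00 CPM (3.22), 15.5% of the level under the P cut. These 3 genes were thus far above the control in S-phase-like cells and yet at 15.5% or less of their level under the P cut of the same library.

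By cell, 6.87% (5.13 to 8.98) of S-phase-like cells had an FCER1G UMI at 8000 UMIs, against 0.0430% in the control and 47.2% under the P cut. GCHFR was found in 5.05%, 0.172% and 47.3%, and CYTIP in 10.9%, 1.38% and 47.2%. Before thinning, 12.2% of S-phase-like cells had an FCER1G UMI. The levels in S-phase-like cells ran from 5.04% of the level under the P cut for GCHFR to 41.7% for SPIB and 55.2% for TNFRSF13B. Without the 5% of cells with most UMIs the log2 ratios were 7.28 for FCER1G, 4.85 for GCHFR and 3.20 for CYTIP. The part of free RNA and of doublets in these values was not tested.

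The chemokines CCL3 and CCL4, which draw T cells and monocytes, and KDR, a VEGF receptor, were at 0 UMIs in control S-phase-like cells. CCL3 had 119 UMIs in the S-phase-like cells, at least 86.2-fold higher against a floor of 3 UMIs over the group. CCL4 had 74, at least 53.6-fold higher, and KDR 64, at least 46.4-fold higher. A CCL3 UMI was found in 3.09% of S-phase-like cells at 8000 UMIs and in 0 of 2324 control cells, which allows a share of cells with a UMI of up to 0.129% (3 cells of 2324), while under the P cut it was found in 23.7%. The levels of the 3 genes were 8.01% to 14.0% of those under the P cut. These genes belong to a list of 15 chosen earlier for its high values in the whole library labelled RUNX1, so its direction is not independent evidence; 2 of the 15, FCER1G and GCHFR, reached 10 CPM here. CCL3 and CCL4 have near-identical copies, and reads could be split between them.

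MS4A1 and CD37 were low in these cells. MS4A1, the CD20 surface protein, had 18 UMIs (1.22 CPM) against 11 (0.344 CPM) in the control, with a UMI in 0.701% of S-phase-like cells at 8000 UMIs against 0.301% in the control, where the intervals overlap, and in 10.7% under the P cut. CD37, a B-cell tetraspanin, was found in 2.95%, 0.516% and 19.97%. The S-phase-like levels were 6.08% and 8.98% of those under the P cut. Both genes thus had most of their transcript outside the S-phase-like cells.

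The list of MHC class II genes, which present antigen, and mature B-cell genes had 15 measured members of 24 listed. All 15 reached 10 CPM in the S-phase-like cells and 12 in the control, so some, HLA-DQA1 among them, were measured only because they were high in the former. Of the 15, 8 were higher and 0 lower, with a median log2 ratio of 0.61 against −0.13 over all genes. Among all genes 6.67% were higher and 13.1% lower. HLA-DQA1 stood at 10.4 against 3.66 CPM (1.51, 1.15 to 1.87), HLA-DQB1 had 588 against 579 UMIs (1.14 on the log2 scale of CPM), and CD72, an inhibitory co-receptor of B cells, stood at 31.9 against 15.8 CPM (1.01). The list median was 0.66 both in mitotic cells and under the P cut, so it was of like size in all 3 sets. The median was 0.73 for cells with no Y-linked UMI and 0.22 between cells of both libraries with 3 or more, where HLA-DQA1 stood at 0.50.

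The pre-B receptor and its signalling genes moved both ways. Of 19 members 3 were higher and 2 lower, with a median of 0.00, where 6.67% of all genes were higher and 13.1% lower. VPREB1, a surrogate light chain, had 1699 CPM against 941 CPM (0.85, 0.83 to 0.88), and VPREB3, which assists assembly of the receptor, 396 against 202 CPM (0.97). PTPN6, a phosphatase that dampens receptor signals, had 142 against 80.7 CPM (0.82). VAV1, an exchange factor downstream of the receptor, was lower at 9.12 against 17.5 CPM (−0.94), and so was CD22, an inhibitory co-receptor, at 11.2 against 19.5 CPM (−0.81). CD79A, a signalling chain of the receptor, was at 128.0 CPM in S-phase-like cells and 127.9 CPM in the control.

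CD79A was one of several genes where S-phase-like cells lay nearer the control than did the cells under the P cut. Under the P cut it stood at 408 against 192 CPM, a log2 ratio of 1.09, while in S-phase-like cells the ratio was 0.00 (−0.08 to 0.08). RAG1, a subunit of the recombinase that rearranges antibody genes, stood at 37.8 against 36.8 CPM in S-phase-like cells (0.04, −0.11 to 0.19) and at 11.8 against 41.8 CPM under the P cut (−1.82). DNTT, the polymerase that adds bases at the joints, stood at 308 against 558 CPM (−0.85) and at 98.9 against 520 CPM (−2.40). The intervals of the S-phase-like and under-cut ratios do not overlap for any of the 3 genes, and this covers counting error only. Mitotic cells lay near the S-phase-like cells, with ratios of −0.17 for CD79A, 0.08 for RAG1 and −0.89 for DNTT. A DNTT UMI was found in 69.0% of S-phase-like cells at 8000 UMIs, 90.3% of control cells and 30.2% of cells under the P cut of the library labelled RUNX1.

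Over the V(D)J and precursor surface list, 2 of 9 measured members were higher and 2 lower, with a median of 0.04 against −1.22 under the P cut. Among all genes in S-phase-like cells, 6.67% were higher and 13.1% lower. CD99, a surface glycoprotein of precursors, stood at 25.2 against 5.66 CPM (2.16), and ADA, adenosine deaminase, at 165 against 85.9 CPM (0.94). CD9, a tetraspanin of precursor B cells, stood at 554 against 838 CPM (−0.60). CD99 had the largest ratio of the measured members. It reached 10 CPM only in the S-phase-like cells, so it was measured through the group where it was high.

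**Figure D5:**
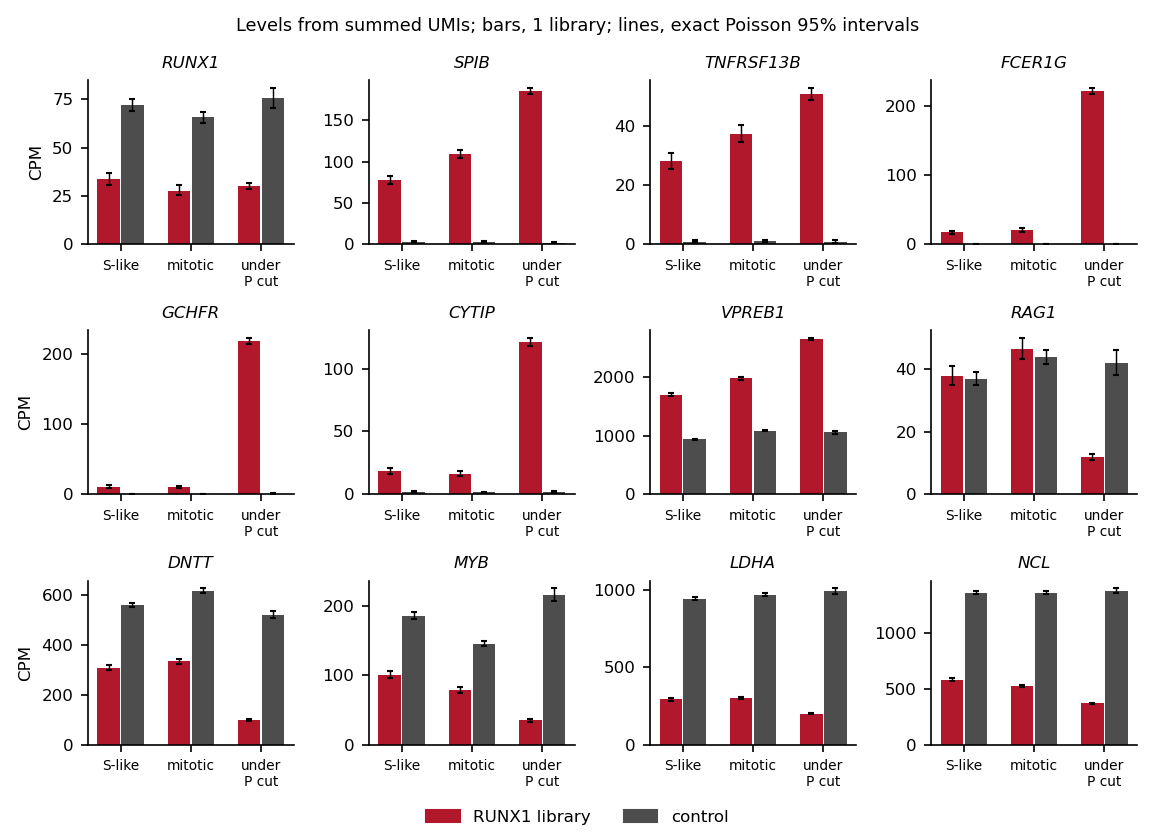
Level in CPM of 12 genes in S-phase-like cells, mitotic cells and cells under the P cut of each library; bars are summed UMIs of 1 library, lines exact Poisson 95% intervals. SPIB, FCER1G, GCHFR and CYTIP are far higher under the P cut (186, 222, 219 and 121 CPM) than in S-phase-like cells of the library labelled RUNX1, while RAG1 is lower there (11.8 against 37.8 CPM).

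In the list of B-cell transcription factors, 26 were measured, 5 of them higher and 8 lower, and the median was −0.27. In the control 24 reached 10 CPM, so SPIB and ID2 were measured only through the group where they were high. The median was 0.19 where cells were limited to 10% mitochondrial UMIs. Besides SPIB and ID2, the higher members were POU2F2, an octamer-binding factor of B cells, at 55.6 against 10.9 CPM (2.36), AFF3 at 66.9 against 38.8 CPM (0.79) and IKZF2, an Ikaros-family factor, at 58.8 against 39.9 CPM (0.56). MEF2C, which supports precursor B-cell survival, stood at 56.7 against 110 CPM (−0.95). More members of the list were lower than higher, as over all genes, of which 13.1% were lower and 6.67% higher.

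Among 8 measured RUNX family members and partners 1 was higher and 3 lower, RUNX1 included. The shares over all genes were 6.67% higher and 13.1% lower. TLE4, a co-repressor that RUNX1 binds, stood at 133 against 271 CPM (−1.02), and CBFB, the partner subunit of RUNX1, at 30.9 against 50.4 CPM (−0.71). CBFA2T3, a co-repressor of the ETO family, stood at 16.9 against 10.5 CPM (0.68). Its ratio was 0.17 for cells with no Y-linked UMI, 1.25 between cells of both libraries with 3 or more, and 0.12 where mitochondrial UMIs were limited to 10%. The list median was −0.21, and 0.07 with totals that leave out mitochondrial and ribosomal protein genes.

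Factors of blood progenitors were lower. Of 6 measured members 0 were higher and 5 lower, with a median of −0.97, where 6.67% of all genes were higher and 13.1% lower. EGFL7, a secreted factor of endothelium and blood progenitors, stood at 8.37 against 38.3 CPM (−2.19), LYL1 at 13.3 against 43.6 CPM (−1.72), LMO2 at 16.5 against 34.4 CPM (−1.06) and MYB at 101 against 185 CPM (−0.88). ERG stood at 32.2 against 51.3 CPM (−0.67) and MSI2 at 113 against 108 CPM (0.06). The ratios were larger under the P cut, with a median of −2.49 and MYB at 35.0 against 216 CPM. EGFL7 and LYL1 also belong to a list of 7 genes chosen earlier for low values in the whole library labelled RUNX1. Their direction here is not independent evidence.

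EGFL7 and GNG11 moved with the Y-linked split. EGFL7 stood at 3.77 CPM in S-phase-like cells with no Y-linked UMI and 16.8 CPM in those with 3 or more, with ratios over the control of −3.34 and −1.21. GNG11, a G protein gamma subunit, had 0.222 and 14.9 CPM against 33.7 CPM in the control, with a ratio of −2.56 over all S-phase-like cells. CD79A stood at 101 and 169 CPM. SPIB (86.5 and 59.4 CPM), TNFRSF13B (28.6 and 26.9) and LDHA (295 and 299) were closer between the 2 kinds of cells. Other ratios over the control that differed between the classes, with no Y-linked UMI first, were those of IER3 (2.24 and 1.32), VEGFA (−1.66 and −0.81), POLA1 (−0.51 and −1.19), VPREB3 (0.69 and 1.35), CD99 (2.35 and 1.69), POU2F2 (2.56 and 1.94), GCHFR (4.91 and 5.50), ELFN2 (−3.65 and −2.55), RP6-109B7.3 (−3.04 and −2.02) and MT-TH (−1.92 and −3.03). LYL1 stood at 10.9 CPM in cells with none and 17.2 CPM in cells with 3 or more. SPIB was above the control in both, with ratios of 5.01 and 4.52, and so was FCER1G, with 7.60 and 6.82 against the floor of 3 UMIs.

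The 10 lowest genes were led by ELFN2, a leucine-rich repeat membrane protein, at 1.22 against 11.2 CPM (−3.19). The others were PPIAP16 (−2.77), RPL21P75 (−2.66), RP6-109B7.3 (−2.57), GNG11, the mitochondrial transfer RNA genes MT-TK (−2.53) and MT-TH (−2.20), EGFL7, NBEAL1 (−2.07) and BNIP3. ELFN2, RP6-109B7.3, GNG11, EGFL7 and BNIP3 belong to the list chosen earlier for low values, so their direction is not independent evidence. PPIAP16 and RPL21P75 are pseudogenes that share reads with their parent genes, so their levels are uncertain. The pseudogene RPL21P75 had ratios of −2.67 in mitotic cells and −2.89 under the P cut, near that of the S-phase-like cells.

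Glycolysis and hypoxia genes held the largest share of lower members of any list with 10 or more measured genes. Of 26 measured members 0 were higher and 21 lower, with a median of −0.82, where 6.67% of all genes were higher and 13.1% lower. LDHA, lactate dehydrogenase, stood at 295 against 947 CPM, a log2 ratio of −1.68 (−1.73 to −1.64). P4HA1, a collagen prolyl hydroxylase induced by low oxygen, had 19.3 against 56.9 CPM (−1.56), VEGFA 5.85 against 14.8 CPM (−1.34) and BNIP3, a mitophagy receptor, 14.6 against 58.5 CPM (−2.001). BNIP3 also belongs to the list chosen earlier for low values. The list medians of −0.94 in mitotic cells and −0.86 under the P cut were of like size. LDHA had the same ratio in cells with no Y-linked UMI (−1.68) and between cells of both libraries with 3 or more (−1.67).

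MYC targets and nucleolar genes were next, with 0 of 26 higher and 16 lower and a median of −0.55. The shares over all genes were 6.67% higher and 13.1% lower. NCL stood at 579 against 1357 CPM (−1.23, −1.26 to −1.20), WDR43, which processes ribosomal RNA, at 56.5 against 133 CPM (−1.24), and ODC1, the first enzyme of polyamine synthesis, at 228 against 479 CPM (−1.07). NOP58, a core protein of small nucleolar particles, stood at 114 against 197 CPM (−0.78). Heat shock and chaperonin genes had 1 of 21 higher and 10 lower (median −0.48), with HSP90AB1 at 1339 against 2416 CPM and HSPD1 at 693 against 1230.5 CPM. Sterol and fatty acid genes had 1 of 26 higher and 10 lower (median −0.27), led by HMGCS1, an early enzyme of cholesterol synthesis, at 38.5 against 89.0 CPM (−1.21). Ribosomal proteins of the cytosol had 7 higher and 8 lower genes of 81 measured, with a median of 0.22. These are shares of all UMIs, so the list medians shift together with the total; the 4 lower lists stayed below 0 in all 18 alternatives.

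At 10 CPM or more, 13 immediate early genes were measured in the S-phase-like cells and 11 in the control, and 20 and 18 p53 targets, so that members such as BBC3 were measured only through the group where they were high. Of 13 immediate early genes 6 were higher and 0 lower, with a median of 0.49 that was smaller than in mitotic cells (0.83) and under the P cut (1.11). JUN stood at 57.4 against 21.8 CPM (1.39), IER3 at 39.5 against 10.1 CPM (1.97), ZFP36L1, which destabilises transcripts, at 165 against 85.4 CPM (0.95) and BTG2 at 29.3 against 17.7 CPM (0.73). Of 21 p53 targets 8 were higher and 0 lower, with a median of 0.10. For both lists, the shares over all genes were 6.67% higher and 13.1% lower. BBC3, a pro-apoptotic BCL2 protein, stood at 19.6 against 6.98 CPM (1.49), ZMAT3 at 50.3 against 25.2 CPM (1.00) and DDB2, a sensor of UV damage, at 81.5 against 47.0 CPM (0.80). MDM2, the ligase that degrades p53, stood at 50.1 against 63.1 CPM (−0.33), so the members did not all go one way. The ratio of ZMAT3 was 0.46 for cells with no Y-linked UMI and 1.56 between cells of both libraries with 3 or more.

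Smaller or mixed lists were the integrated stress response (1 of 21 higher, 3 lower, median −0.13), interferon genes (0 of 16 higher, 3 lower, −0.11), BCL2 family (2 of 10 higher, 0 lower, −0.04), NFkB targets (1 of 4 higher, 1 lower, −0.27), adhesion genes (2 of 8 higher, 1 lower, 0.06), glucocorticoid receptor targets (0 of 4 higher, 1 lower, −0.42) and G2/M genes outside the scores (1 of 37 higher, 2 lower, −0.14). The shares over all genes were 6.67% higher and 13.1% lower. DDIT3, a stress-induced factor, stood at 37.8 against 21.2 CPM (0.83). TNFAIP3, a brake on NFkB, stood at 41.8 against 18.3 CPM (1.19), and the integrin subunit ITGA4 at 20.4 against 41.1 CPM (−1.01). None of these lists had a median as far from that of all genes as the MHC class II and mature B or glycolysis lists.

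Markers of T, NK, myeloid, erythroid, platelet, fibroblast and endothelial cells were mostly absent or low. All 12 measured B precursor markers reached 10 CPM in S-phase-like cells, with a summed level of 5657 CPM against 4943 CPM in the control. Of 11 T cell markers 7 were at 0, and the sum was 44.5 against 25.7 CPM, led by the kinase LCK at 28.2 against 8.26 CPM (1.77). ZAP70, the other T cell marker measured, had a log2 ratio of −0.19. Of 7 NK cell markers 4 were at 0, and NKG7, a granule protein, stood at 17.1 against 8.17 CPM (1.07). Of 12 myeloid markers 6 were at 0, 0 reached 10 CPM, and the sum was 4.97 against 3.94 CPM. Of 8 erythroid and platelet markers 7 were at 0, and of 7 fibroblast and endothelial markers 4 were. All 6 plasma cell markers had UMIs, 2 of them at 10 CPM or more, and they summed to 639 against 707 CPM. The cells thus carried a precursor B profile, and of the listed markers of other cell types LCK and NKG7 were above 10 CPM and 2-fold higher. Both reached 10 CPM only in the S-phase-like cells, so they were measured through the group where they were high. GZMK and GZMA, granzymes of cytotoxic lymphocytes outside these lists, were chosen after their values were seen and stood at 24.7 against 3.94 CPM and 26.5 against 7.79 CPM.

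SPIB transcript divided the S-phase-like cells further. At 8000 UMIs, 239 cells had a SPIB UMI and 474 had none, with median P of 9.22 and 9.62, median M of 3.81 and 3.87 and median totals of 19769 and 20238 UMIs. A cell with none may hold transcript that was not captured, so these are not 2 types of cell. This division was chosen after the values were seen, and the values below are a description.

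Cells with a SPIB UMI had more of the other genes that stood high in the library labelled RUNX1. FCER1G stood at 36.1 CPM in them and 6.50 CPM in cells with none, CYTIP at 40.6 and 8.12 CPM, and GCHFR at 22.7 and 3.96 CPM. TNFRSF13B stood at 58.8 and 13.2 CPM, CCL3 at 15.4 and 2.44 CPM, and C12orf75 at 887 and 240 CPM. PTCRA, the pre-T receptor alpha chain, stood at 74.0 and 21.1 CPM and CD99 at 50.2 and 12.9 CPM. CD79A stood at 187 and 98.1 CPM and PTPN6 at 231 and 98.6 CPM, so that CD79A, at the level of the control over all S-phase-like cells, differed within them.

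Some precursor genes went the other way, while VPREB1 was higher in cells with a SPIB UMI, at 2078 against 1511 CPM (0.46). RAG1 stood at 9.80 CPM in cells with a SPIB UMI and 51.7 CPM in cells with none, a log2 ratio of −2.40 (−2.86 to −1.97), and DNTT had a ratio of −1.46 with 389 CPM in cells with none. MYB stood at 60.4 and 120 CPM, LYL1 at 6.46 and 16.5 CPM (−1.36) and EGFL7 at 1.88 and 11.6 CPM (−2.62). RAG1 over all S-phase-like cells, which equalled the control within counting error, was thus an average over its levels with and without a SPIB UMI.

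Among S-phase genes outside the scores, E2F1 stood at 111 CPM in cells with a SPIB UMI and 162 CPM in cells with none (−0.55, −0.69 to −0.40), UHRF1 at 107 and 150 CPM (−0.49) and PCNA at 332 and 359 CPM. LDHA and NCL had ratios of −0.15 and −0.18, and RN7SK and PCBD1 had 0.07 and 0.22 with intervals that held 0. RUNX1 stood at 28.3 and 35.8 CPM (−0.34, −0.63 to −0.05). LDHA and NCL were thus far below the control in cells with and without a SPIB UMI.

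The SPIB division was present in both Y-linked classes. A SPIB UMI was found in 36.5% (32.1 to 41.1) of S-phase-like cells with no Y-linked UMI and in 26.1% (20.6 to 32.2) of those with 3 or more. In the first class RAG1 stood at 12.2 CPM in cells with a SPIB UMI and 57.9 CPM in cells with none, and in the second at 4.96 and 42.1 CPM. FCER1G stood at 41.1 and 5.67 CPM in the first class and at 20.5 and 8.00 CPM in the second. The direction was the same in each class.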

How the data were processed

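Single-cell RNA-seq of 2 Nalm-6 libraries, 1 per group, was analysed; the 10 samples of ChIP-seq were not used here. The deposited values are raw UMI counts per gene and cell, which the authors made with Cell Ranger 3.0.2 on hg19 and mm10 per the submitters' processing notes, with no normalization. The S-phase-like cells, the lists and the other choices were made with earlier results of these data known.

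UMIs were summed over cells and scaled to CPM of their total. Ratios used no pseudocount and genes at 10 CPM or more in either group, and genes under 4 UMIs were ranked against a floor of 3 UMIs (0.204 CPM in S-phase-like cells, 0.0939 CPM in the control). Intervals are exact: Poisson for CPM, Clopper-Pearson for shares and conditional binomial for ratios. Named genes were RUNX1, the score genes, the 10 highest and 10 lowest ratios without score and Y-linked genes, up to 4 of each list with the largest ratios, and 2 lists chosen earlier from the whole library. RAG1, DNTT, CD79A, MCM3, MCM5, CDC6, PCNA, E2F1, GZMK, GZMA, FEN1, MDM2, MSI2, MKI67 and TOP2A in subsets, C12orf75, PTCRA and C2orf48 fall outside this rule and were chosen once values were known. In lists, higher and lower mean a log2 difference of at least 0.5. Of the listed symbols 2 were missing, and 1 named gene is not reported here. Shares of cells used random thinning to 8000 UMIs; shallower cells were left out. Positions came from GENCODE v44lift37 by Ensembl identifier for 55538 of 57905 genes, and promoter sequences from RefSeq on GRCh38.p14 for 8 of 8 genes. Phases were scored in scanpy 1.11.5. edgeR 4.0.16 (R 4.3.3) gave the TMM factors. Scripts ran in Python 3.11.15 with numpy 2.4.6, scipy 1.17.1, pandas 2.3.3, anndata 0.12.19 and matplotlib 3.10.9. The ratio code was tested on simulated data. Alternatives changed scaling, gene floor, cell limits, score limits, depth and cell subsets.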

Additional observations from a re-analysis of the deposited data

Results flagged for a closer look

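CKS1B, a small subunit of cyclin-dependent kinases, stood on opposite sides of the control in different cells of the library labelled RUNX1. In S-phase-like cells it was at 209 against 147 CPM, a log2 ratio of 0.51 (0.44 to 0.57), and in mitotic cells at 334 against 253 CPM. In cells under the P cut it was at 43.1 against 61.1 CPM, a ratio of −0.50. The difference between these ratios was not tested.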

How the results depend on the processing

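No paired analysis was possible because each group had 1 single-cell library, and for the same reason no library could be left out. Against 117 higher and 115 lower genes, the counts moved by over 1.5 times under these settings: 305 higher with totals without mitochondrial and ribosomal protein genes; 76 lower with the median of ratios; 801 higher and 278 lower at a gene floor of 1 CPM; 19 and 48 at 50 CPM; 246 and 235 with mitochondrial UMIs limited to 10%, which left 90 S-phase-like and 1793 control cells; and 195 lower for cells with no Y-linked UMI against all control cells. Under the other settings higher counts lay between 113 and 166 and lower counts between 84 and 151. The share of cells in the range was 16.4% against 43.2% after thinning, and 49.1% in the control at the 10% mitochondrial limit. Over 18 alternatives and 136 genes, 588 gene values moved beyond their counting interval, 1860 did not and 0 called values changed sign; for 33 lists, judged by the median interval of their members, these were 127, 465 and 0. The 4 alternatives on Y-linked, histone and shared-barcode cells were chosen after seeing the data. The causes were not tested. With 1 library per group, depth sets the intervals, and variation between cultures was not measured. No doublets were removed, and free RNA was not measured.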

Other observations

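C2orf48, a transcript that lies just downstream of RRM2 and within the span of that gene in GENCODE v44lift37, went the other way from RRM2 in the S-phase-like cells. It stood at 19.5 CPM against 4.69 CPM in the control, a log2 ratio of 2.06 (1.77 to 2.35), while RRM2 stood at −0.82. In mitotic cells the ratio of C2orf48 was 1.78, and under the P cut, at 1.11 against 1.26 CPM, it was −0.19. Thinned to 8000 UMIs, 13.6% of S-phase-like cells had a C2orf48 UMI, 3.57% of control S-phase-like cells and 0.651% of cells under the P cut. It was higher in S-phase-like cells with many histone UMIs than in the others, at 24.1 against 9.92 CPM, and the same held in the control, at 5.97 against 2.69 CPM. The gene was chosen after its values were seen, and reads of the 2 overlapping genes may be shared.

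Mitochondrially encoded genes did not differ from the control by 1 factor. Of 13, 3 were higher and 2 lower by 0.5 or more, with a median of 0.26. MT-ATP6, a subunit of the ATP synthase, and MT-CO3, a subunit of cytochrome oxidase, had log2 ratios of 0.80 and 0.77. MT-ND3 and MT-ND4L, subunits of complex I, had ratios of −1.11 and −1.08. The same genes had ratios of 0.77, 0.72, −1.12 and −1.15 in mitotic cells, so the pattern was near equal in both kinds of cycling cell. Under the P cut the list also had 3 higher and 2 lower genes, with a median of 0.29. In S-phase-like cells at a limit of 10% mitochondrial UMIs, the list median was −0.09 and MT-ND3 stood at −1.47.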
